A study of Homo sapiens with 18 samples.

Results

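The second staining of an already washed microarray was examined by comparing, on the same array, the last scan before it with the first scan after it. The scans were chosen by their titles: A4 and A5 on array A, and B4 and B5 on array B, which are 4 of the 18 scans taken, and all 54675 probe sets were followed. Total RNA of untreated FTC-133 cells, a human follicular thyroid carcinoma line, was labelled with biotin and hybridized to 3 HG-U133 Plus 2.0 arrays, so that every difference between scans is technical and none is a difference between cells. Each array was stained in 3 rounds, washed under stringent conditions and scanned, and the whole procedure was then repeated as a second series on the same hybridization. Scan A4 followed 17 stringent cycles after the first staining, and A5 followed the second staining with no stringent cycle in between, so that no such cycle separates the A pair. The staining itself, the handling around it and the renewed scan cannot be told apart. Array B had 2 stringent cycles before its first staining and 17 after it at scan B4, and 2 further cycles before its second staining at B5, so that the total went from 19 to 21 and staining and washing cannot be told apart on this array. Array C (scan C1 after 6 cycles, C2 after 12) was kept out of the comparison. Its scan C1 was used to rank the probe sets by brightness, and its step from C1 to C2 is given at the end for description. With 2 pairs an exact two-sided permutation test cannot go below p = 0.5, so that tests rest on a model over all probe sets, and the values of both arrays are given. The study describes that the scanner's upper limit cut off the brightest probe intensities in the second series, and the part of this limit in the signals of the brightest probe sets on A5 and B5, in their folds and in their ranks was not tested.

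Staining makes bound RNA visible: streptavidin carrying the fluorescent dye phycoerythrin binds to the biotin on the hybridized cRNA fragments, and an antibody against streptavidin brings in further dye. RNA that has stayed on the probes through washing but has lost or never received dye can therefore become bright again. A probe set consists of pairs of a perfect match (PM) and a mismatch (MM) oligonucleotide, and the MAS5 signal is a robust mean over these pairs after a value derived from the mismatch has been subtracted. The MAS5 signals used here are scaled so that all scans have the same trimmed mean, so that a gain in dye shared by all probe sets is removed and only shifts among probe sets remain. Unless signals are named, changes below are differences of log2 signal, A5 minus A4 or B5 minus B4, after each scan had been centred on its median.

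The range of signals narrowed over the second staining. On array A the highest signal was 34355 on A4 and 20137 on A5, and on array B it was 51804 on B4 and 24247 on B5. The mean of the 100 highest signals went from 27160 to 13559 on A and from 41942 to 18368 on B. At the dim end the 5th percentile went the other way, from 6.94 to 15.9 on A and from 3.62 to 5.73 on B. The interquartile range of the log2 signals was 3.13 on A4 and 2.82 on A5, against 3.51 on B4 and 3.45 on B5. The median signal went from 86.3 to 111.7 on A and from 53.6 to 63.3 on B, which are shifts of 0.37 and 0.24 on the log2 scale that centring removes. Before centring, 61.7% of the probe sets had a higher signal on A5 than on A4 and 60.3% on B5 than on B4. The majority of dim and medium probe sets thus moved up and the bright ones down, within a fixed trimmed mean.

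The change depended on how bright a probe set was. Ranked on scan C1, which is on neither side of the comparison, the 5468 probe sets of the highest decile had a median change of -0.64 (95% interval of the median over probe sets -0.65 to -0.63) on A and of -0.41 (-0.42 to -0.39) on B. Within this decile 97.0% of the probe sets were below 0 on A and 85.7% on B. Quantile normalization, by which every scan takes on a common distribution, removes such a shift by construction: with it the medians of this decile were -0.01 and 0.01, and with each scan anchored on its 100 probe sets brightest on C1 they were 1.13 and 1.61. The brighter the probe sets, the further below the others they lay. It was -1.52 on A and -1.69 on B for the 100 brightest, -1.04 and -1.08 for those ranked 101 to 500, -0.80 and -0.76 for ranks 501 to 1000, -0.69 and -0.55 for ranks 1001 to 2000, and -0.53 and -0.25 for the remaining ranks down to the end of the decile. With quantile normalization the median of the 100 brightest was -0.19 on A and -0.32 on B, and with anchoring, which sets their mean to 0, it was 0.25 and 0.33. In signals as deposited, the median of the 100 brightest was 25476 on A4 and 10933 on A5, and 40678 on B4 and 15212 on B5.

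Below the highest decile the arrays went apart. On A the median change was -0.34 in decile 9, -0.19 in decile 8 and -0.03 in decile 7, between 0.13 and 0.33 in deciles 6 to 2, and 0.47 (0.43 to 0.51) in decile 1, the dimmest. With an offset of 16 added to the signals, decile 1 was at 0.11 on A and -0.12 on B, and after quantile normalization at 0.03 and -0.22. On B it was -0.02 in decile 9, positive from decile 8 (0.12) to decile 2 (0.04), with its highest value of 0.15 in decile 7, and -0.01 (-0.06 to 0.05) in decile 1. The highest minus the lowest decile was -1.11 on A and -0.40 on B, and this gap is the same as deposited, centred or anchored, while quantile normalization turned its mean over both arrays to 0.09. The width within a decile was far larger than these shifts: in decile 1 the 25th and 75th percentiles of the changes were -0.43 and 1.33 on A and -1.05 and 0.95 on B, and in decile 10 they were -0.84 and -0.44 on A and -0.67 and -0.15 on B. The intervals above cover the spread over probe sets of 1 array and not the spread between arrays.

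**Figure D1:**
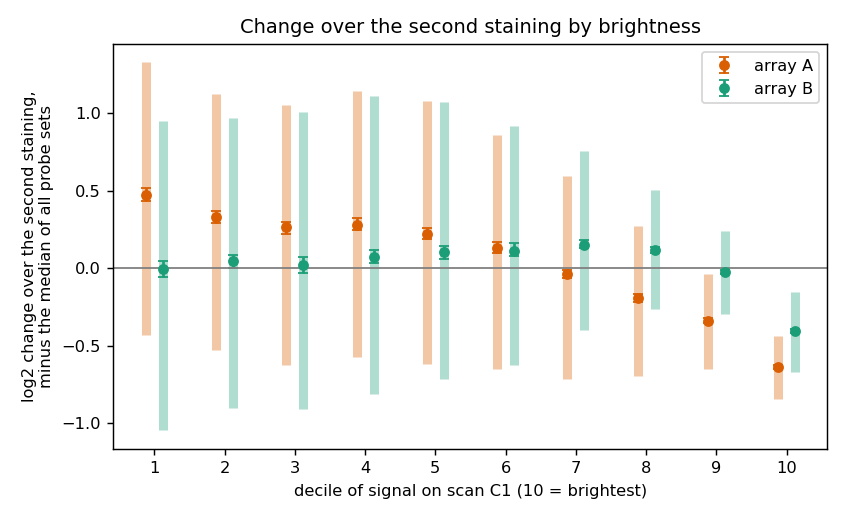
Median change of log2 signal over the second staining for 10 groups of probe sets ranked on scan C1, array A in orange and array B in green. Points are medians with their 95% intervals over probe sets and pale bars run from the 25th to the 75th percentile. Decile 10 is at -0.64 on A and -0.41 on B, and decile 1 at 0.47 on A and -0.01 on B; without centring all points move up by 0.37 on A and 0.24 on B.

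Washing on the same arrays moved the bright probe sets the opposite way. In the 6 washing steps of array A the median change of the 100 brightest lay between 0.10 and 0.96, and in the 6 of array B between 0.04 and 0.68. Their median level relative to all probe sets was 6.17 on A1, 8.21 on A4, 6.61 on A5 and 7.66 on A8, and on B1, B4, B5 and B8 it was 7.99, 9.57, 7.91 and 8.96. After the second staining the brightest probe sets of array A stood between A1 and A2, at 0.48 above A1 and 0.45 below A2 by the median of the differences. On array B they stood near their level of the first scan, at 0.09 below B1. Within the second series they did not come back to the level of A4 or B4. The lowest decile of array A followed a mirrored course, at -1.58, -2.30, -1.95 and -2.22 on A1, A4, A5 and A8, while that of array B stayed between -2.54 and -2.39 on all 8 scans.

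**Figure D2:**
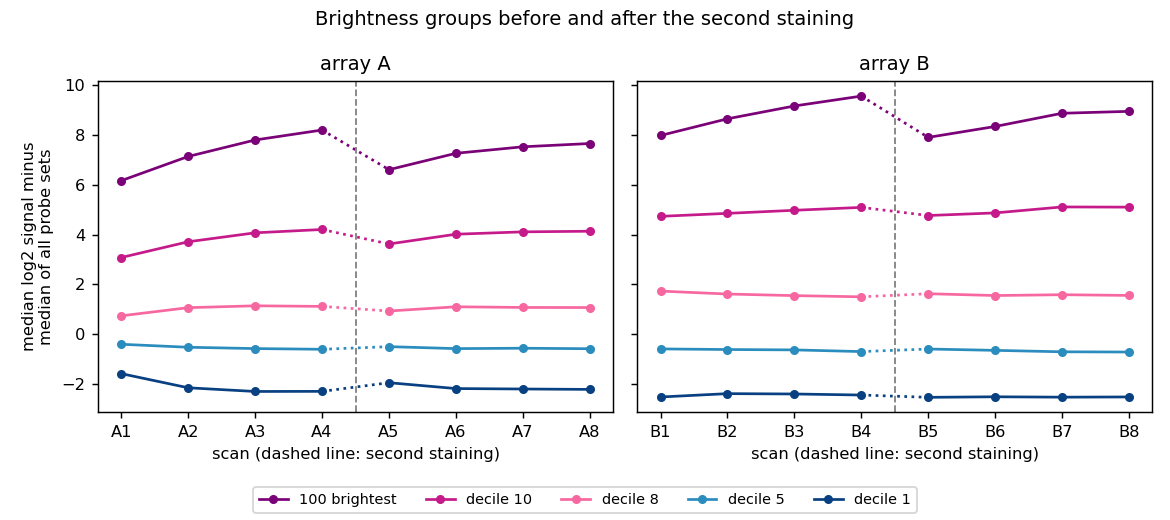
Median log2 signal of 5 brightness groups minus the median of all probe sets, on the 8 scans of array A (left) and array B (right), with the second staining at the dashed line and washing cycles between the other scans. The 100 brightest climb to 8.21 on A4 and 9.57 on B4, stand at 6.61 on A5 and 7.91 on B5, and climb again to 7.66 on A8 and 8.96 on B8.

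The second staining was also the widest step of both arrays. The SD of the change over all probe sets was 1.24 from A4 to A5, against 0.66 to 1.06 in the washing steps of array A, and 1.31 from B4 to B5, against 0.78 to 1.10 on array B. A change of more than 2 log2 units either way was seen for 11.2% of the probe sets on A and 13.5% on B, and for 2.07% to 7.01% and 3.52% to 9.51% in the washing steps. By the SD of the differences, scan A5 was nearest to A1 among the scans of the first series (0.93, against 1.01 for A2, 1.16 for A3 and 1.24 for A4) and B5 nearest to B1 (1.10, against 1.16, 1.23 and 1.31), and both were nearer still to the scan that followed (0.81 to A6 and 0.78 to B6).

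The order of the brightest probe sets, which no scaling of a whole scan can change, was reshuffled at this step. Of the 100 brightest probe sets of a scan, 96, 98 and 97 were still among the 100 brightest on the next scan over the 3 washing steps before A4, and 95, 96 and 95 over those before B4. Over the second staining 46 of 100 were kept on A and 42 of 100 on B. In the second series 79, 76 and 81 were kept on A and 69, 70 and 84 on B, so that the order did not settle at once. Of the 100 brightest on A4, 11 were no longer among the 500 brightest on A5, and of those on B4, 13 were not on B5. Over the 500 brightest probe sets of scan C1 Spearman's rho between the neighbouring scans was 0.61 from A4 to A5 and 0.45 from B4 to B5. It lay between 0.987 and 0.997 in the first series of both arrays and between 0.79 and 0.95 in the second. These are descriptions over probe sets of 1 array each, with no test.

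**Figure D3:**
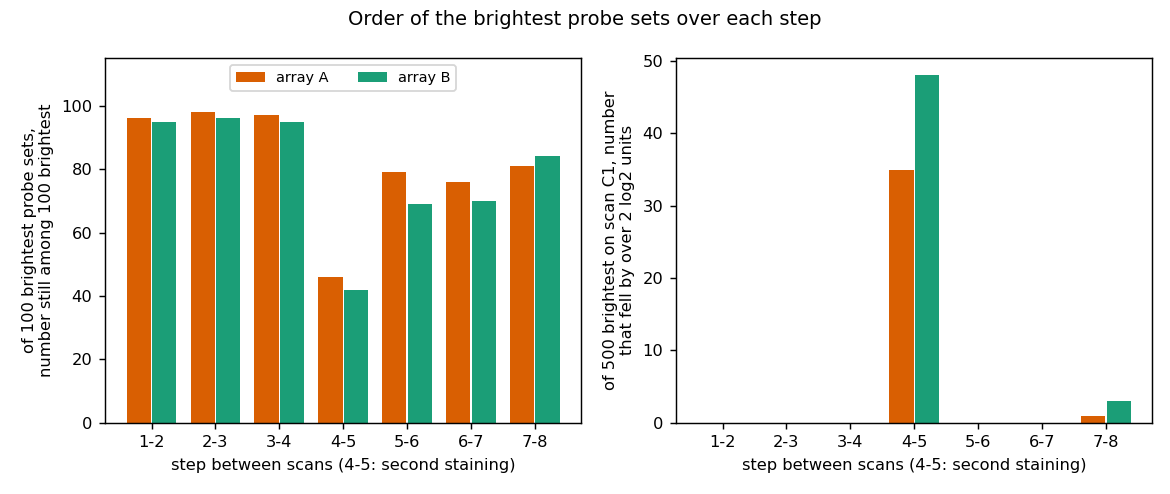
Left, how many of the 100 brightest probe sets of a scan were among the 100 brightest of the next, for the 7 steps of array A (orange) and array B (green). Right, how many of the 500 brightest (ranked on C1) fell by more than 2 log2 units relative to the median at each step: 35 on A and 48 on B at step 4-5, the second staining, and at most 3 at any other step.

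Each probe set was tested over both arrays with limma, with the array as a block, an intensity trend in the variance and Benjamini-Hochberg adjustment to a threshold of 0.05 over all probe sets. Of 54675 tested, 2368 fell (4.33%) and 231 rose (0.422%), and without adjustment 5449 fell and 2305 rose at p below 0.05. Of those that fell, 2161 were in the highest decile, which is 39.5% of that decile, and 3 of its probe sets rose. The probe sets that fell had a median signal of 4071 on A4 and 3055 on A5, and of 5674 on B4 and 4098 on B5, with a median change of -0.81 (median SE 0.16). Those that rose were dim before the staining, at a median of 6.76 on A4 and 124.5 on A5 and of 2.99 on B4 and 56.0 on B5, with a median change of 2.97 (median SE 0.81). The test has 1 residual degree of freedom per probe set and borrows the rest (79.3 prior degrees of freedom) from the trend. Without the trend 0 probe sets passed, with 1558 lower and 2199 higher at an unadjusted p below 0.05, and with all 16 scans of both arrays in the fit 741 fell and 118 rose, or 60 and 26 without the A pair and 47 and 4 without the B pair. The share of rises among the calls was 8.89% with centring, 23.7% as deposited (842 fell, 261 rose), 42.1% after quantile normalization (110 fell, 80 rose) and 99.95% (19 fell, 35762 rose) when each scan was anchored on the 100 probe sets brightest on C1, a scaling that puts the median change of all probe sets at 1.69 on A and 1.99 on B.

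A small set of very bright probe sets fell far more than the rest. Among the 500 brightest on scan C1, 24 (4.8%) fell by more than 2 log2 units relative to the median on both arrays, and all 500 were below the median change on both, so that these 24 differ from the rest in depth and not in direction. Their depth varied, from -9.46 to -2.08 by the mean over both arrays. Over all probe sets 284 (0.519%) did so, 213 of them from the dimmer part of the ranking below the median, and 564 (1.03%) went up by as much on both, none of them in the highest decile. The 24 had a median signal of 24619 on A4 and 4513 on A5, and of 38674 on B4 and 6071 on B5. Of the 24 probe sets, 18 carry the suffix _x_at, with which Affymetrix marks probe sets whose probes can bind transcripts of other genes as well. Such probe sets made up 188 of the 500 brightest, and 9.57% of them were among the 24. The share was 2.94% for the 136 with the plain suffix _at and 1.14% for the 175 with _s_at. Within the highest decile the _x_at probe sets were also brighter on C1, at a median of 2932 against 1618 for _at and 1844 for _s_at. The shares are not matched for brightness. In the annotation 12 of the 24 have 1 gene symbol, for 10 genes, 9 have several symbols and 3 are not listed.

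The probe set that lost most, 221798_x_at, which the annotation used here does not list and which is therefore unnamed, had 25210.0 on A4 and 159.7 on A5, and 39488 on B4 and 19.3 on B5. Its change relative to the median was -7.68 on A and -11.24 on B, and it stood at rank 69 before and 21496 after on A, and at 72 and 40609 on B. Next among the probe sets with 1 symbol was 207783_x_at, annotated to HUWE1, a ubiquitin ligase. It had 3784 on A4, 456 on A5, 29048 on B4 and 71.4 on B5. It fell by 6.17 ± 0.37 (SE of the fit, whose variance comes mostly from the trend, limma adjusted p = 1.88e-24). Its changes were -3.43 on A and -8.91 on B, so that the sizes on the arrays lay far apart, which this SE does not show. Moderation made robust against outlying variances ended this call (adjusted p = 0.646 by limma), and likewise those of FTH1P5, CFL1 and COX1 below (0.332 to 0.507). The other 4 probe sets of HUWE1 did not pass the test. The brightest of them, 208598_s_at, had 1439 and 1092 on A and 1264 and 1598 on B, a change of -0.34 ± 0.21. Its signal on C1 was 1305, against 15591 for 207783_x_at. Probes of an _x_at probe set can also bind other transcripts, and which RNA 207783_x_at measured was not tested. Below, HUWE1 stands for this probe set by its annotation.

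S100A6, which encodes a small calcium-binding protein, was among the brightest genes of both arrays before the staining. Probe set 217728_at had 31412 on A4 and 1422 on A5, a 22.1-fold lower signal, and 43394 on B4 and 961 on B5, 45.2-fold lower. It went from rank 9 to 2664 on A and from rank 28 to 4540 on B, and fell by 5.29 ± 0.16 relative to the median (limma adjusted p = 6.03e-44). Its changes on A and B were -4.84 and -5.74. When the other scans of both arrays were fitted without B4 and B5, so that only the A pair spans the step, the call was lost. FTH1P5, annotated as a ferritin heavy chain pseudogene whose probes (211628_x_at) can also bind the RNA of near-identical genes, had 28133 and 3119 on A and 40329 and 1499 on B (change -4.27 ± 0.17). ATP6, a mitochondrially encoded subunit of ATP synthase, had 23970 and 1729 on A and 35979 and 5208 on B (-3.60 ± 0.16).

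CFL1, the actin-severing protein cofilin, shows how differently 2 probe sets of a gene can respond. Its brighter probe set 200021_at had 17531 on A4 and 1439 on A5, and 24069 on B4 and 4989 on B5, a fall of 3.25 ± 0.17. The probe set 1555730_a_at, with 5582 and 3874 on A and 10439.6 and 7471 on B, fell by 0.81 ± 0.15. TPT1, the translationally controlled tumour protein, has 5 probe sets, all with signals between 21649.8 and 29358 on A4. After the staining they ranged from 2778 (214327_x_at) to 12747 (216520_s_at) on A5, with changes from -3.34 to -1.14 on A and from -2.35 to -1.19 on B. Nearly level before the staining, the 5 probe sets were far apart after it. Such disagreement was the exception: among the 1000 brightest probe sets, 127 genes had more than 1 probe set with a single symbol, and the median range of the changes within a gene was 0.22 on A and 0.33 on B. A range above 1 log2 unit was seen for 5 genes on A and 8 on B, and 3 of them were the same on both.

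All 24 of these probe sets were brighter on the last scan than just after the staining, on both arrays, but they came back unevenly. The median signal of the 24 was 13180.2 on A8 and 17544 on B8, and 10 of the 24 had regained more than 50% of their A4 and B4 signal. S100A6 went through 1422, 7396, 17882 and 20565 on A5 to A8, and through 961, 1889, 11819 and 4188 on B5 to B8. The HUWE1 probe set 207783_x_at had 456, 769, 6065 and 1246 on A5 to A8 and 71.4, 414, 6184 and 804 on B5 to B8. It thus peaked at the scan after 7 additional cycles on both arrays. FTH1P5 had 3119, 14999.9, 4378 and 19328 on A and 1499, 3639, 19557 and 20983 on B, and the dip at A7 had no counterpart on B. In the first series S100A6 had climbed from 12297 on A1 to 31412 on A4.

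**Figure D4:**
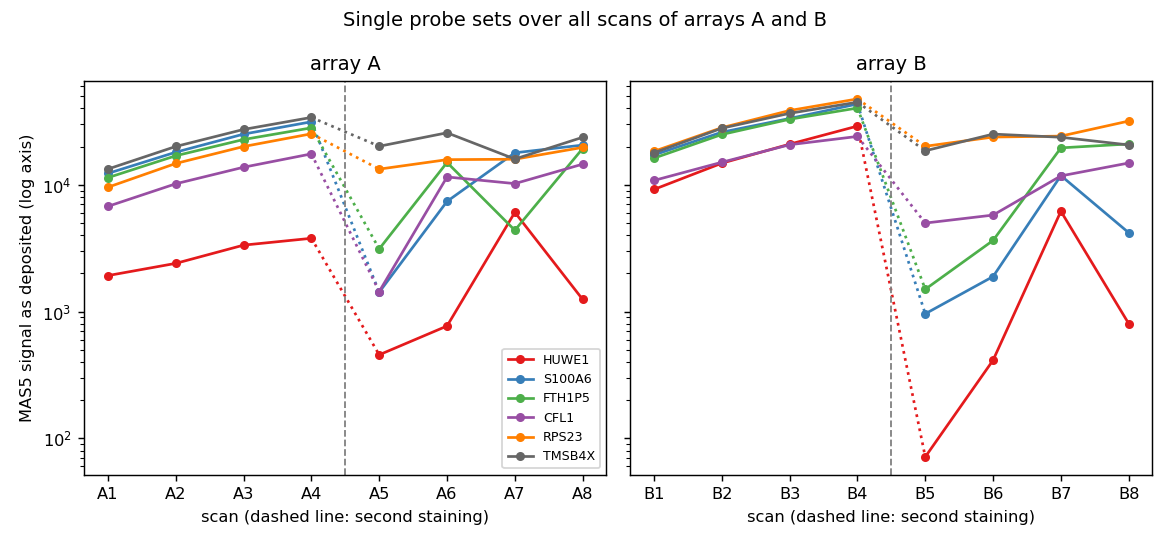
Deposited MAS5 signal (log axis) of 6 probe sets on the 8 scans of array A (left) and array B (right). Probe sets are named by their annotated gene, and the second staining is at the dashed line. HUWE1, S100A6, FTH1P5 and CFL1 are among those that fell by more than 2 log2 units on both arrays, while RPS23 and TMSB4X, with 25255 and 34000.0 on A4 and 47559 and 44850.1 on B4, have 13292 and 20137 on A5 and 20130.0 and 18544 on B5.

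Among the 10 brightest genes on C1 the depth differed as well. TMSB4X, which encodes the actin-binding thymosin beta 4, had 34000.0 on A4 and 20137 on A5, and 44850.1 on B4 and 18544 on B5 (change -1.32 ± 0.13), and went from rank 2 to 1 on A and from 20 to 37 on B. RPS23, a protein of the small ribosomal subunit, had 25255 and 13292 on A and 47559 and 20130.0 on B (-1.39 ± 0.13), and went from rank 67 to 44 on A and from 7 to 11 on B. The mitochondrially encoded cytochrome oxidase subunit COX1 was the brightest gene on C1 and fell further, from 32465 to 5101 on A and from 50796 to 17722 on B (-2.40 ± 0.15). The remaining 7 of the 10 brightest genes on C1 (TMSB10, EEF1A1, RPL7, COX2, ACTB, RPS10 and RPL39) changed by -1.46 to -2.74, with RPL7 and ACTB also among the 24 above, and all 10 passed the test. Relative to the anchor of the 100 brightest probe sets, of which they are part, RPS23, TMSB4X, COX2, RPS10 and RPL39 had a positive change instead, of 0.14 to 0.57.

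The spiked controls gave the same order by brightness. Transcripts of the bacterial genes bioB, bioC and bioD and of the phage gene cre are added to the hybridization in rising amounts. The 6 probe sets of bioB had a geometric mean signal of 353 on A4 and 374 on A5, and of 512 on B4 and 514 on B5, and none passed the test. Those of bioC went from 1130 to 990.2 on A and from 1752 to 1580 on B, those of bioD from 5566 to 4576 and from 9639 to 7024, and those of cre from 25036 to 13997 and from 38178 to 18995. The mean change relative to the median was -0.29 and -0.24 (A and B) for bioB, -0.56 and -0.39 for bioC, -0.66 and -0.70 for bioD, and -1.21 and -1.25 for cre, of which all 4 probe sets fell. Between the dimmest and the brightest spike the range of signals was thus narrower after the staining. After quantile normalization the medians of bioD and cre were slightly above 0 on both arrays (0.07 to 0.26), and with anchoring the medians of all 4 spikes were above 0. The 27 probe sets of the transcripts that are added elsewhere in the protocol or not at all (dap, lys, phe, thr and trpn) were dim, with a median of 19.6 on A4 and 26.7 on A5 and of 9.51 on B4 and 25.2 on B5, and none passed.

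ACTB and GAPDH have control probe sets at the 3′ end, the middle and the 5′ end of the transcript. For ACTB the changes were -1.40, -1.25 and -0.85 on A and -1.88, -1.16 and -1.21 on B, in that order, and for GAPDH, an enzyme of glycolysis, -1.59, -1.21 and -1.85 on A and -1.44, -1.74 and -2.04 on B, and all 6 fell. The fall thus had no shared order along the transcript, and with anchoring the medians of both genes were above 0 (for ACTB on B also after quantile normalization). The control for Alu repeats was among the brightest controls, with 30575 on A4 and 10109.8 on A5, and 45596 and 12197 on B4 and B5. The 3 probe sets of 18S ribosomal RNA (-0.62 to 0.02) did not pass. Of the 62 control probe sets 15 fell and none rose, where 4.33% of all probe sets fell and 0.422% rose. All 15 belong to the highest decile, in which 39.5% of the probe sets fell.

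**Figure D5:**
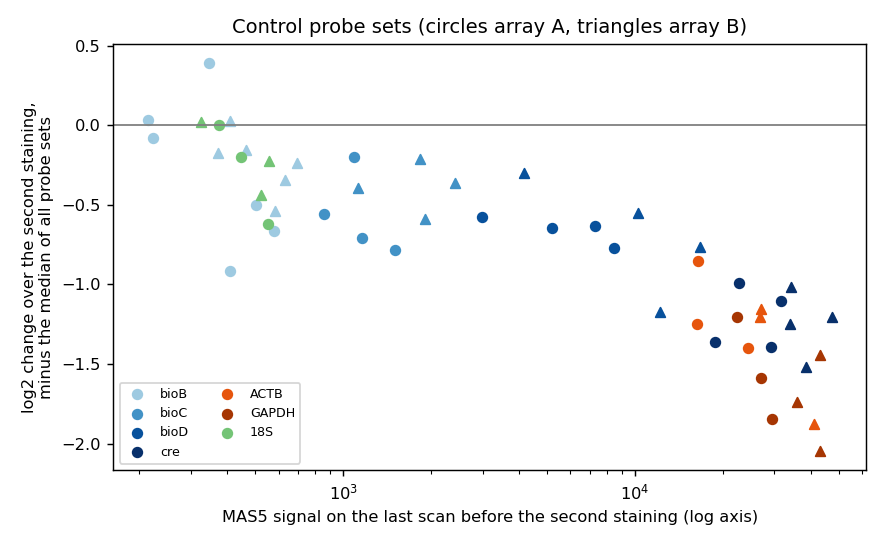
Change over the second staining (log2, each scan centred on its median) of the spiked and endogenous control probe sets against their signal on the last scan before it (log axis), circles for array A and triangles for array B. bioB and 18S lie between -0.92 and 0.39, bioC and bioD between -1.17 and -0.20, and cre, ACTB and GAPDH lowest at -0.85 to -2.04; the signal before is part of the change, and with scans anchored on the 100 brightest probe sets cre, ACTB and GAPDH lie above 0 in the median.

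For gene groups, each gene was represented by its probe set brightest on C1. Over 19775 genes the median change was -0.26 on A and -0.10 on B, 1554 genes fell (7.86%) and 50 rose (0.253%), and in the highest decile 1444 of 3582 genes fell (40.3%), with medians of -0.64 and -0.41. The medians of the groups of highly expressed housekeeping genes were below these values on both arrays, by margins that were not tested. By the same test all 500 of the probe sets brightest on C1 fell, so that the counts of members below are to be read against brightness. Of 42 cytosolic ribosomal proteins, the protein part of the ribosome, 41 fell, with medians of -1.30 on A and -1.46 on B, and 41 of them belong to the highest decile. Their median signal was 21756 on A4 and 11032 on A5, and 34309 on B4 and 15174 on B5. RPL7 had 32900 and 10587 on A and 48085 and 12394 on B (change -2.10 ± 0.13), RPS23 is given above, and the member that did not fall, RPLP2, is represented by a dim probe set (74.98 and 103.5 on A, 194.7 and 299.2 on B). The median brightness of the group, 18555 on C1, lies at the upper end of ranks 101 to 500 (8578 to 19967), whose median change was -1.04 and -1.08, and just below the 100 brightest with -1.52 and -1.69, so that the group's change lies between those of both bins.

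Energy metabolism followed. Of 18 glycolysis genes 13 fell (medians -1.09 and -1.07), GAPDH from 27001.5 to 11652 on A and from 43094 to 18743 on B (-1.51 ± 0.13). Deeper was the fall of LDHA, which makes lactate from pyruvate, with 26081 and 9429 on A and 40455 and 11119 on B (-1.97 ± 0.14). Of 40 nuclear genes of oxidative phosphorylation 32 fell (-0.73 and -0.72). In this group COX7C, a subunit of cytochrome oxidase, had 18386 and 6253 on A and 28189 and 8952 on B (-1.91 ± 0.14), while ATP5F1A, a subunit of ATP synthase, had 15843 and 8774 on A and 29573 and 18517 on B (-1.07 ± 0.14). Of 7 mitochondrially encoded genes 5 fell (-1.43 and -1.40), COX1 and ATP6 among them, and COX3 and ND6 did not pass.

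The groups of protein turnover and growth follow. Median brightness on C1 was 6298 for the proteasome and 7389 for chaperones, within ranks 501 to 1000 (median change -0.80 and -0.76). For proliferation genes it was 3407 and for mesenchymal and matrix genes 2800, within ranks 1001 to 2000 (-0.69 and -0.55). Of 27 proteasome subunits 25 fell (-0.89 and -0.84), with PSMC2 at 16961 and 8162 on A and 31638 and 8971 on B (-1.74 ± 0.14), and PSMB1 at 15630.4 and 8756 on A and 30304 and 6262 on B (-1.86 ± 0.16). Of 26 chaperones 21 fell (-0.95 and -0.74), PPIA from 30200.5 to 14515 on A and from 41252 to 20350.3 on B (-1.34 ± 0.13), and HSP90AA1 (214328_s_at) by 1.32 ± 0.13, while its probe set 211969_at, one of the 24 above, fell by 2.08 ± 0.14. Of 32 proliferation genes 18 fell (-0.65 and -0.53). TYMS, which makes thymidylate, had 21220 and 11304 on A and 39224 and 20398 on B (-1.23 ± 0.13), and CCNB1, the mitotic cyclin B1, had 7677 and 5669 on A and 11130 and 7936 on B (-0.77 ± 0.15). Of 22 mesenchymal and matrix genes 12 fell (-0.76 and -0.66), with S100A6 the deepest and FN1, which encodes fibronectin, at 24005 and 8328 on A and 44627 and 16376 on B (-1.79 ± 0.14). The medians of all 8 groups from the ribosomal proteins on were above 0 with anchoring. After quantile normalization those of oxidative phosphorylation and of mesenchymal and matrix genes were above 0 on both arrays, and those of mitochondrially encoded genes, chaperones and proliferation genes on B and of the proteasome on A.

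In groups with low signals in this cell line the shares that fell are to be read against the 7.86% of all genes. Of 18 epithelial genes 2 fell (11.1%), the junction protein TJP1 (5778 and 4585 on A, 8177 and 6606 on B, -0.63 ± 0.15) and the keratin KRT7 (3496 and 2437, 5351 and 3830, -0.81 ± 0.17). Of 18 neuronal genes 1 fell (5.56%), TUBB3, a beta tubulin that was also bright here (7209 and 5764, 13632 and 9411, -0.74 ± 0.15). None of 14 thyroid differentiation genes passed, nor of 21 blood cell, 16 liver, 19 muscle and 16 sperm genes. PAX8 and NKX2-1, the thyroid transcription factors, were measured at 1238 and 1245 (A) and 924 and 739 (B), and at 620.4 and 896 (A) and 926 and 721 (B), with changes of -0.46 ± 0.22 and -0.22 ± 0.24, while TG, the thyroid hormone precursor, was dim on all 4 scans (44.9, 210.0, 78.2 and 32.9). Medians of the dim groups differed in direction. They were 0.19 on A and -0.58 on B for thyroid genes, 0.04 and -0.63 for muscle genes and -0.01 and 0.05 for liver genes. For blood cell genes they were -0.43 and -0.37, for neuronal genes -0.29 and -0.02, and for sperm genes 0.24 and 0.03. With anchoring all were above 0, and as deposited those of liver, neuronal and sperm genes were above 0 on both arrays. After quantile normalization the liver ones were below 0 and the neuronal ones above 0 on both arrays. No member of any of the 15 groups rose, which is to be read against the 0.253% of all genes that did.

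The other genes among the 10 with the largest falls were dim: PIAS4, a SUMO ligase (212879_x_at), had 119.8 and 23.1 on A and 241.6 and 35.9 on B (-2.87 ± 0.79, limma adjusted p = 0.0143), and SGSM2, TXNL4B and BAZ2A, with 93.0 to 303 before and 10.97 to 76.8 after, changed by -2.77 to -2.84 (adjusted p = 0.0164 to 0.0342). Other probe sets of these genes were unlike: PIAS4 has another, 212881_at, at 34.8 and 318 on A and 115.3 and 242.3 on B, which rose by 1.83 ± 0.54. None of these 4 calls held in limma with 16 scans in the fit (adjusted p = 0.0883 to 0.225). Naming required a mean log2 signal over the 4 scans above the median, which includes the scans before the staining. Ranked 32264 to 47635 on A5 and B5, these 4 met it through A4 and B4, so that they are a selection in favour of falls.

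The 10 genes with the largest rises were CORT, MRPS15, PTGDR, NRP2, SPINT1, OSCAR, CTSG, SLC22A4, FAM120A and CSF1, with changes of 2.13 to 2.84 and adjusted p-values of 0.0056 to 0.0478 (limma), out of 43 genes that met the conditions for naming, against 1630 for falls. The condition on the mean signal includes the scans after the staining. CORT, NRP2 and SPINT1, ranked 34446 to 43033 on A4 and B4, met it through those scans. The other 7 were each ranked 40189 to 50501 on 1 of A4 and B4, and the scans after the staining raised their mean signal too. All 10 genes are thus a selection in favour of rises. Before the staining many of these values lay within the range of the controls that were not spiked in, which reached 84.4 on A4 and 59.95 on B4. With 16 scans in the fit the calls of CORT, NRP2 and FAM120A held, and those of the other 7 did not (limma adjusted p = 0.0756 to 0.269). No call of the 10 held both without the A pair and without the B pair, with the other scans of both arrays kept in the fit. CORT, the neuropeptide cortistatin, had 40.5 on A4 and 358 on A5, and 11.5 on B4 and 101.5 on B5. In the first scans it had stood at 445 on A1 and 74.6 on B1. For most others 1 array carried the change: PTGDR, a receptor of prostaglandin D2, went from 130.5 to 357 on A and from 6.30 to 121.0 on B, MRPS15, a protein of the mitochondrial ribosome, from 100.7 to 246 on A and from 4.67 to 135.2 on B, and CSF1, the macrophage growth factor, from 16.1 to 303 on A and from 111.6 to 174.3 on B. The low scan stood below the first scan of its array, with 149.4 for PTGDR on B1 and 197.8 for CSF1 on A1.

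Low values before the staining were frequent among the rises. Scan A4 was the lowest of the 8 scans of array A in 167 of the 231 probe sets that rose (72.3%), and B4 the lowest of array B in 169 (73.2%), against 16.9% and 17.9% of all probe sets. Since A4 and B4 are part of the change that called them, these shares are a description. For the 2368 that fell, A4 was the highest of its 8 scans in 63.9% and B4 in 67.1%, against 18.4% and 18.1% of all, while A5 was the lowest in 5.91% and B5 in 24.7%. On simulated data for this comparison, with 200 of 54675 probe sets shifted, 8.5% were found at a shift of 1 log2 unit, 31.5% at 2, 55% at 3 and 75% at 4, and in the highest decile 45% at 1 unit and 100% beyond it. The fit also called 21 to 45 unchanged probe sets, 11 to 22 of them as higher. The simulated noise varied with brightness alone, which is what the trend assumes, and held no outlying scans. The shares found and these counts hold for such noise only, and do not say how many of the 231 rises are false.

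The arrays resembled each other where the signal was high. Across probe sets Pearson's r between the change on A and on B was 0.11 over all 54675, 0.06 to 0.18 in each of deciles 1 to 8, 0.33 in decile 9 and 0.70 in decile 10. Both changes were on the same side of 0 for 57.3% of all probe sets and for 86.4% of decile 10, where 4623 were below 0 on both and 103 above. No scan is shared between the arrays, but brightness is, and probe sets are not independent replicates. The change over the staining on one array can also be set against washing on the other, again with no scan in common: in decile 10, r was -0.58 between A5 minus A4 and B4 minus B1, and -0.58 between B5 minus B4 and A4 minus A1, while over all probe sets it was -0.06 and -0.09. Bright probe sets that had gained most by washing on one array thus tended to lose most by staining on the other, which is a statement about the highest decile alone.

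Array C, with 6 stringent cycles between its only scan of the first series and its second staining, gives the same step in another setting. The median change from C1 to C2 was -0.48 for the 100 brightest and -0.26 for decile 10, which are smaller values than on A and B. They are open to chance highs on C1, by which the probe sets were ranked. Decile 10 lay within the range of the medians of deciles 5 to 9 on C (-0.37 to -0.23). The median was -0.32 for ranks 101 to 500 and -0.24 to -0.26 in the bins from rank 501 to the end of the decile. The graded fall of A and B below rank 500 was thus not seen on C. Pearson's r of the change on C with those on A and B was 0.33 and 0.35 in decile 10 (Spearman's rho 0.23 and 0.20), where it was 0.70 between A and B (rho 0.60). Of the 500 brightest probe sets 3 fell by more than 2 log2 units on C, and all 3 were among the 24 described above, HUWE1 (15591 on C1, 1156 on C2), 205967_at (14735 and 944) and 221798_x_at (23154 and 121.8). S100A6 had 22561 and 7597 there. Of the 24, 23 had a negative change on C, with a median of -0.79, against -0.36 for the 500 brightest. The 4 controls of cre, which lost 1.21 and 1.25 on A and B, changed by -0.04 on C.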

How the data were processed

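The 3 arrays carried the same biotinylated cRNA of FTC-133 cells, and 18 scans of them are used. The deposited values are MAS5 signals, which the authors computed from PM and MM intensities and scaled to a common trimmed mean, and the version of MAS5 is not given in the sources used here. Raw probe intensities, scaling factors and saturated spots were not analysed here. All 18 columns of the deposited table were matched to scans by title, with 0 columns unused.

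Signals were turned to log2, and each scan was centred on its median. Pairs were formed within an array (A4 and A5, B4 and B5), so that the array is the block: both scans of a pair come from the same hybridization. The change was tested with limma 3.58.1 (R 4.3.3, data.table, version 1.17.8), with an intensity trend and Benjamini-Hochberg adjustment at 0.05 over all 54675 probe sets, without a filter. The 2 arrays are technical replicates, so that p-values cover no spread between RNA samples. With 1 residual and 79.3 prior degrees of freedom, they and the SEs rest mostly on a variance shared by probe sets of like brightness. The spread of a single probe set between the arrays enters them only in small part. Alternatives in scaling were the signals as deposited, quantile normalization, anchoring on the 100 brightest probe sets and an offset of 16. Others were the brighter 27337 probe sets, no trend, robust moderation, no block, 16 scans, the A or the B pair left out, and pair C added. The fit was tested on simulated data. Descriptions and figures were made with Python 3.11.15, numpy 2.4.6, pandas 2.3.3, scipy 1.17.1 and matplotlib 3.10.9.

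Of the probe sets, 41097 have 1 gene symbol in GEO's platform annotation, 1801 have several and 11777 have none, and 41043 were matched to RefSeq by gene ID. Named were the 10 largest falls and the 10 largest rises, by the mean over both arrays, among probe sets with 1 symbol that passed the test, changed the same way on both arrays and had a mean log2 signal over the 4 scans above the median (1 per gene), the controls (1 item is not reported here), the 10 brightest genes on C1 and the 3 members of each gene list brightest there, of which at most 2 are given. RPLP2, COX3, ND6, TG, the unnamed probe sets and other probe sets of named genes were picked after their values were seen. The comparison, the 15 gene lists and the tests were chosen with earlier results of these data known.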

Additional observations from a re-analysis of the deposited data

Results flagged for a closer look

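In decile 7 of the ranking on C1 array A had a median change of -0.035 and array B one of 0.15, and in decile 8 the values were -0.19 for A and 0.12 for B. These values are of interest because the arrays lay on opposite sides of 0, and the difference was not tested. On array C, which is outside the comparison, 3 of the 500 brightest probe sets changed by more than 2 log2 units downward over its second staining: 221798_x_at by -7.77, 207783_x_at (HUWE1) by -3.95 and 205967_at by -4.16.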

How the results depend on the processing

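Counts of probe sets past the threshold moved most, from 231 higher and 2368 lower. They were 80 and 110 after quantile normalization, 35762 and 19 anchored on the 100 brightest, 118 and 741 with 16 scans, 5 and 28 with pair C added, and 0 and 0 without the variance trend. With the A or the B pair left out and the other scans of both arrays in the fit, 4 to 26 were higher and 47 to 60 lower. Without the block for the array, which ignores the pairing of scans, 1 was higher and 4 lower. As deposited 842 were lower, and 109 were higher with an offset of 16 and 129 among the brighter probe sets alone. The difference between highest and lowest decile (-0.755) became 0.090 after quantile normalization, which removes shifts that depend on brightness by construction, was -0.46 with the offset and -1.17 when ranked on the mean of the pair, and was -0.40 and -1.11 on the arrays alone. The likeness of the arrays over all probe sets (0.11) was 0.15 with the offset, 0.20 among the brighter probe sets and 0.14 as Spearman's rho. Of the 15 gene lists, 12 lay below all genes and 7 did after quantile normalization. Their distance to all genes then turned to 0.00091 for the proteasome, 0.11 for oxidative phosphorylation, 0.0019 for mitochondrially encoded genes, 0.053 for chaperones, 0.011 for proliferation, 0.039 for mesenchymal and matrix genes and -0.031 for liver genes. For thyroid genes it turned to 0.0053 with the offset and 0.099 when a gene's probe sets were averaged. With 1 array left out it ran from -0.48 to 0.45 for thyroid genes, from -0.53 to 0.30 for muscle genes and from -0.027 to 0.074 for neuronal genes, and it turned where array B was left out.

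After quantile normalization the change was above 0 for RPS23 (0.017), ATP5F1A (0.21), PPIA (0.099), HSP90AA1 (0.12), TYMS (0.20), CCNB1 (0.11), TJP1 (0.12), NKX2-1 (0.087) and TUBB3 (0.16). With anchoring it was above 0 for RPS23 (0.50), COX2 (0.43), RPS10 (0.36), TMSB4X (0.57), RPL39 (0.14), GAPDH (0.38), PSMC2 (0.15), PSMB1 (0.031), ATP5F1A (0.82), PPIA (0.55), HSP90AA1 (0.57), TYMS (0.66), CCNB1 (1.12), FN1 (0.099), TJP1 (1.27), KRT7 (1.08), NKX2-1 (1.67), PAX8 (1.43) and TUBB3 (1.16). For NKX2-1 it was 0.084 as deposited and 0.16 without the B pair. Over all named genes and alternatives, 251 values kept direction and side of the threshold, 264 kept direction and lost the call, and 30 turned. The number kept among the 100 brightest was 42 to 46 by array, a measure added after seeing the data. No scaling used here changes the order within a scan, so that this number cannot depend on the scaling. With 2 arrays of 1 RNA, 1 residual degree of freedom and no raw probe intensities, dim probe sets allow no firm statement for single genes.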
